A study of Mus musculus with 20 samples.

Results

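Livers of mice given glucagon and T3 together were set against livers of control mice. The members were the 4 libraries with the treatment label Gluc+T3, called combination livers here, and the 4 with the label Control, which makes 8 of the 20 libraries of the series. All 13319 gene symbols listed in the count files were examined. Each library was made from 1 liver, all mice were male and ate a western diet, a feed rich in fat and sugar, and all groups, controls included, shared sex, diet and a daily treatment of 16 days. The other groups, with 4 livers each, were given glucagon alone, T3 alone, or an agent that the labels code Cp and that, as the 1 treatment left, would be the hybrid molecule of both hormones named in the design. Levels in the glucagon and T3 livers are printed beside those of the combination for some genes only. Where they are absent, 1 hormone alone may have given a like level. The Cp livers entered only alternative fits. Doses, vehicle, strain, age and the hour of tissue collection are not stated in the sources used here.

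Glucagon is the pancreatic hormone of fasting. It binds a receptor on hepatocytes that couples through a stimulatory G protein to adenylyl cyclase, and the cyclic AMP (cAMP) made there activates protein kinase A and the transcription factor CREB, which switches on genes of glucose output and amino acid breakdown. T3 (triiodothyronine) is the active thyroid hormone. It enters the nucleus and binds thyroid hormone receptors, in liver mainly the beta form, which exchange corepressors for coactivators at their target genes and are known for lowering blood cholesterol and for driving cholesterol into bile acids.

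Total counts ran from 9858877 to 14897657 in the combination libraries and from 11562213 to 23195658 in the control libraries. The biological coefficient of variation, the typical spread of a gene between livers of a group, was 17.6% in the combination group and 38.6% in the control group. A principal component analysis of log2 CPM (counts scaled to library size, here with a prior count of 2) placed the combination livers at 29.5 to 43 and the control livers at -74.7 to -18.9 on a first component with 42.6% of the variance. The groups did not overlap on it. Control 1 was at the far end of that component, and control 2 stood apart on the second component (21.4% of the variance) at -67.3, against -4.8 to 28.2 for the other control livers. Both groups expressed the hepatocyte markers (Alb, Apoa1, Ttr and 5 others), which summed to 92600 to 144000 CPM in combination livers and 125000 to 249000 CPM in control livers. Skeletal muscle markers summed to 213 CPM in combination 4 and 633 CPM in control 2, against at most 12.4 CPM in the other control livers. Cholangiocyte markers summed to 334 CPM in control 2 against 25.5 to 73.2 CPM in the other control livers. In bulk liver, fewer cells of a type and less RNA per cell cannot be told apart. The labels name separate mice, and p-values measure the spread between them.

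Of 12348 genes tested, 918 differed between combination and control livers at an adjusted p under 0.05, which is 7.43% of the genes. They were split into 475 genes that were higher (3.85%) and 443 that were lower (3.59%), and the median log2 change of all genes was -0.06. A gene that passed this test is called changed here, and levels are normalised CPM. The 4 combination livers lay wholly above or wholly below the 4 control livers in 2100 genes (17%), above in 9.05% of genes and below in 7.95%. The number of called genes depended on which livers were compared. Leaving out 1 liver at a time gave 452 genes without combination 3, 453 without combination 2, 468 without combination 1 and 512 without combination 4. It gave 655 without control 4, 1138 without control 1, 1231 without control 2 and 1352 without control 3, and 387 genes were called in all of these fits. Without control 1 and control 2, an alternative added after the data were seen, 1638 genes were called, 775 higher and 863 lower. Sequencing lane, which the labels give and which pairs the replicate numbers of both groups, left 741 genes (420 higher and 321 lower) when it was a block in the fit.

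**Figure D1:**
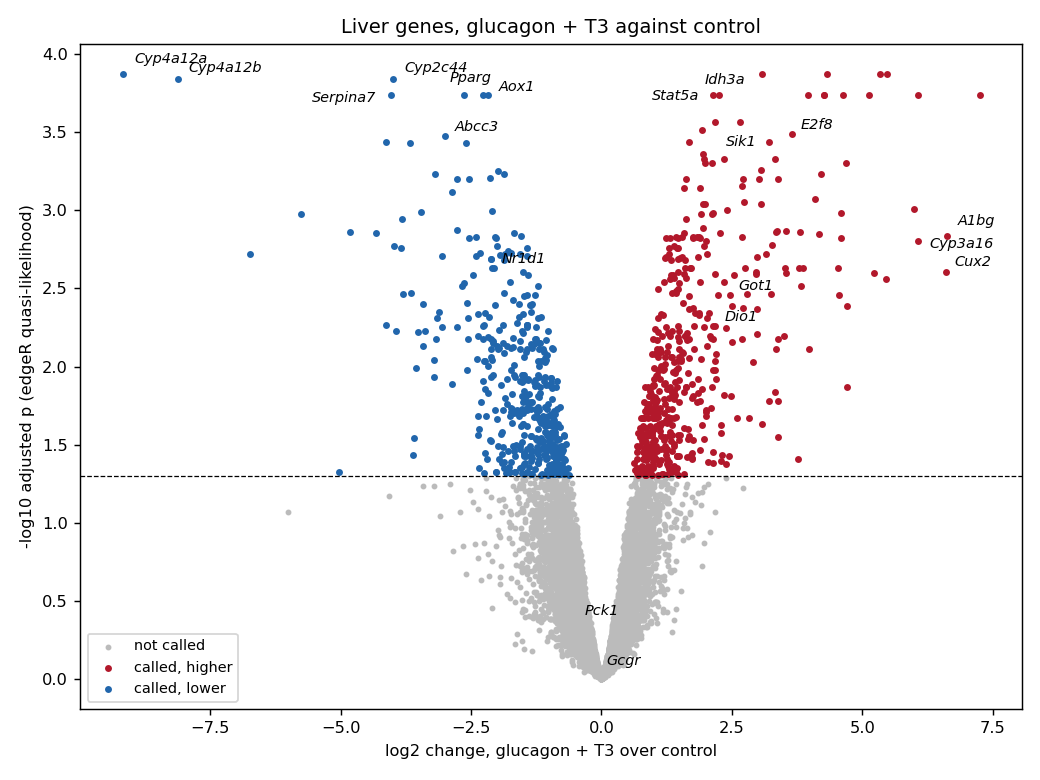
Log2 change of each tested gene (glucagon + T3 over control, horizontal axis) against -log10 of its adjusted p (vertical axis), 1 point per gene, with the dashed line at an adjusted p of 0.05. The 475 called higher genes are red and the 443 called lower genes are blue, and Cux2 and Cyp4a12a lie near the 2 ends while Gcgr and Pck1 sit among the genes not called.

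Genes were ranked by log2 change where they were called, averaged 20 CPM or more over the 8 livers and did not overlap between the groups (476 genes, 254 higher and 222 lower). The 10 highest were Cux2, Cyp3a16, Cyp3a44, Cyp17a1, Ugt2b37, Ces4a, Cyp4a31, E2f8, Sult5a1 and Sik1, with log2 changes of 6.60 down to 3.21. The 10 lowest were Cyp4a12a, Sucnr1, Serpina7, Cyp2c44, Hsd17b6, Mup20, Nox4, Keg1, Inmt and Cyp2d9, with log2 changes of -9.17 up to -3.15. Of these ranked genes, only E2f8 and Sik1 were called against T3 livers, both higher in the combination, and Cyp4a12a was not tested there. The others did not differ detectably from T3 livers, with an adjusted p of 0.115 (Keg1) to 0.916 (Cux2). E2f8, an E2F-family transcription factor of the cell cycle, was at 151, 80.8, 61.6 and 99.7 CPM in combination livers and 5.51, 10.6, 9.99 and 5.05 CPM in control livers. It rose by 3.65 ± 0.36 (log2, SE; adjusted p = 0.000325). It was 1.30 ± 0.24 above the T3 livers (adjusted p = 0.0111, or 0.104 in the fit of all 20 libraries) and did not differ detectably from glucagon livers (-0.25 ± 0.27, adjusted p = 0.512). Sucnr1, the succinate receptor, was at 4.57, 3.92, 4.36 and 5.75 CPM in combination livers and 226, 19.5, 36.5 and 46.2 CPM in control livers, so that control 1 set much of its mean. Nox4, an NADPH oxidase that makes hydrogen peroxide, was at 3.46 to 9.36 CPM in combination livers and 40.6 to 188 CPM in control livers (log2 -3.85 ± 0.53). Inmt, an N-methyltransferase of indole amines, averaged 150 ± 100 CPM in combination livers and 1610 ± 913 CPM in control livers (SD, n = 4 each), with control 2 at 316 CPM next to combination 4 at 296 CPM. Members of the Cyp, Ugt, Sult, Ces, Gst and Mup families have near-identical copies, between which the authors' counting could split reads, so their single values are uncertain.

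Changes were gathered by lists of genes, whose members are given as counts and medians beside the same over all genes tested. The lists were written with earlier results of these data known, so a high share may in part reflect how members were chosen. Female-biased genes and thyroid hormone responsive genes held the largest shares of members called higher among lists with at least 15 members tested, at 45.8% and 27%, against 3.85% of all genes. Male-biased genes and drug metabolism genes held the largest shares called lower among the same lists, at 45.2% and 29.4%, against 3.59% of all genes. These shares are by edgeR, and by limma with library weights 6 of 24 female-biased, 14 of 37 thyroid hormone responsive and 9 of 28 growth hormone and IGF genes were called higher. Over all lists together edgeR called 66 genes higher and 72 lower, DESeq2 85 and 118, limma 96 and 108, the fit of all 20 libraries 105 and 135, lane as a block 64 and 61, and the fit without control 1 and control 2 107 and 116. Beside each list's counts, the words alternatives and a range give the lowest and highest number called in these last 5 fits. Over all genes those fits called 1613 (DESeq2), 1725 (limma), 2598 (all 20 libraries), 741 (lane as a block) and 1638 (without control 1 and control 2). By edgeR, 2972 of the 12348 genes tested were at an unadjusted p under 0.05, in either direction. The lists share members, so their counts are not independent of each other. For every list below, the shares over all genes are 3.85% higher and 3.59% lower, and a count near them says little about its list.

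**Figure D2:**
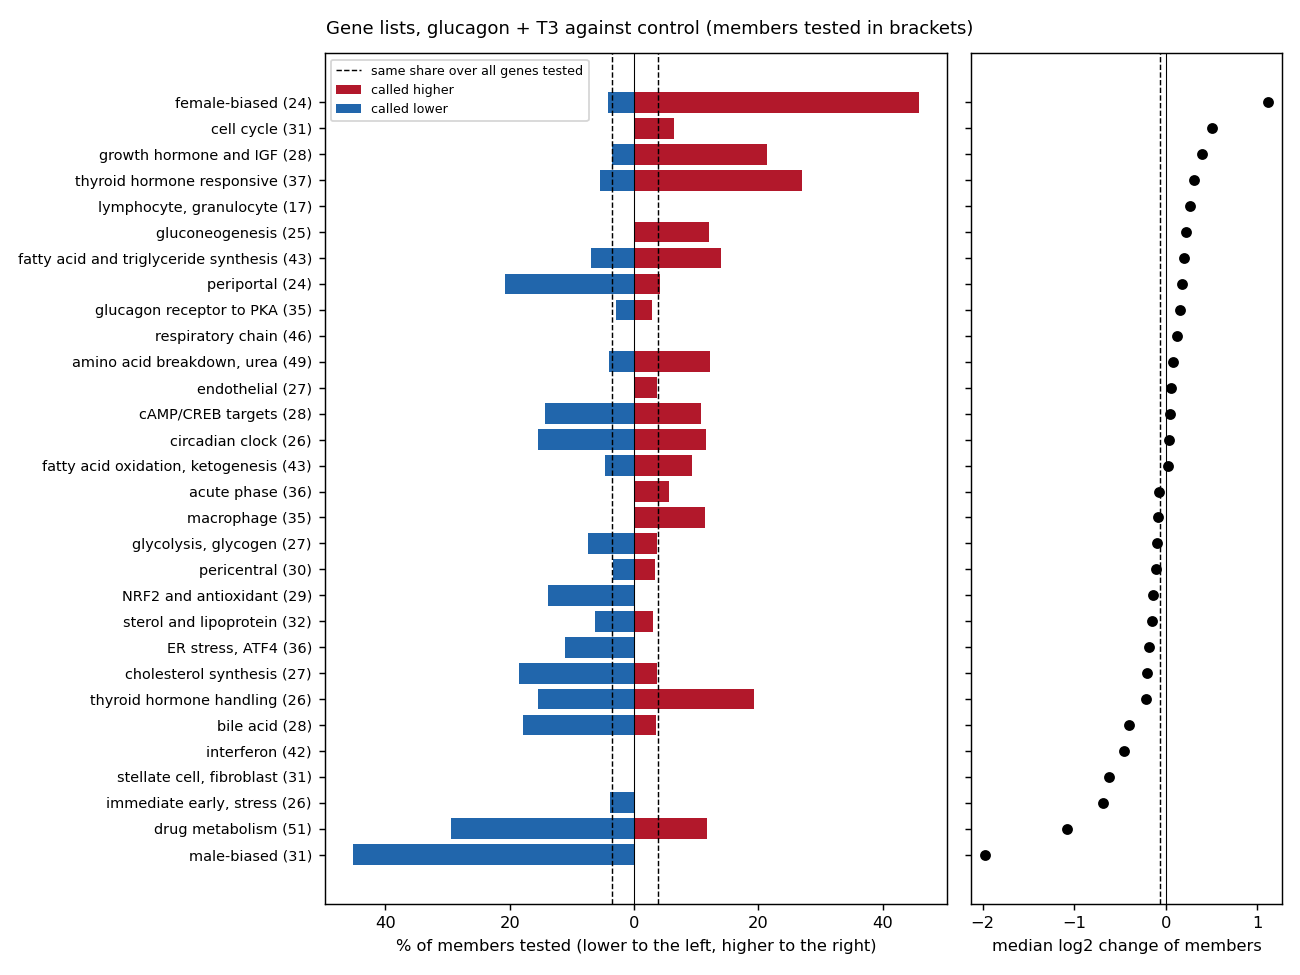
Share of the tested members of each gene list called higher (red, to the right) or lower (blue, to the left) in glucagon + T3 against control livers, with the median log2 change of the members on the right panel. Dashed lines mark the same quantities over all 12348 genes (3.85% higher, 3.59% lower, median -0.06), and the male-biased list has the lowest median (-1.97) and the female-biased list the highest (1.12).

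Genes of thyroid hormone supply and sensing changed in both directions. Of 26 tested genes that carry, convert or bind the hormone, 5 rose and 4 fell (alternatives 5 to 6 higher, 3 to 6 lower), with a median log2 change of -0.21. The 17 that did not pass ran from -2.3 (Slco1a1) to 0.57 (Rxrb) in log2 change. Dio1, the liver deiodinase that converts T4 to T3 and a standard readout of T3 action, was at 490, 501, 512 and 390 CPM in combination livers and at 143, 35, 107 and 133 CPM in control livers. The groups did not overlap, and Dio1 rose by 2.18 ± 0.37 (log2, SE; adjusted p = 0.00554). T3 livers were at 449 ± 81.2 CPM and glucagon livers at 131 ± 41.0 CPM (SD, n = 4 each), so the combination was 1.85 ± 0.20 above glucagon (adjusted p = 4.56e-05) and 0.07 ± 0.16 from T3 (adjusted p = 0.847). Serpina7, which encodes thyroxine-binding globulin, the plasma carrier of thyroid hormone, was at 2.55, 1.76, 1.73 and 3.43 CPM in combination livers and 52.9, 40.9, 21.8 and 38.1 CPM in control livers. T3 livers were at 1.98 ± 0.656 CPM, not detectably different from the combination (adjusted p = 0.731), and glucagon livers at 14.3 ± 4.25 CPM. Every combination liver was below every control liver, which the ranking above required of this gene together with a call. The log2 change against control was -4.03 ± 0.34 (adjusted p = 0.000181).

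The receptor itself was lower. Thrb, the beta receptor, was at 16.0, 12.5, 14.6 and 17.1 CPM in combination livers and at 41.8, 21.3, 31.4 and 27.5 CPM in control livers, a log2 change of -1.02 ± 0.23 (adjusted p = 0.0209). It was also below glucagon livers (30.4 ± 6.77 CPM, log2 -1.02 ± 0.17, adjusted p = 0.000905) and below T3 livers (22.1 ± 2.22 CPM, log2 -0.56 ± 0.14, adjusted p = 0.0395). The call against T3 was lost in the fit of all 20 libraries (0.187) and in 6 of the 8 fits that leave out 1 liver, those without T3 replicate 1, 2 or 4 or combination 1, 2 or 3 (0.052 to 0.121). All T3 libraries were run in lane 5 and all combination libraries in lanes 1 to 4, so lane and treatment cannot be told apart in any comparison with T3. Thra, the alpha receptor, was at 13.0 ± 2.68 CPM in combination livers and 19.5 ± 2.23 CPM in control livers and did not pass (log2 -0.59 ± 0.21, adjusted p = 0.111, or 0.0432 by limma with library weights). Med1, a coactivator subunit, rose by 0.83 ± 0.17. Slc16a10, which moves thyroid hormone and aromatic amino acids across membranes, rose by 1.58 ± 0.23 to 413 ± 16.5 CPM. Glucagon livers were at 450 ± 40.9 CPM (log2 -0.13 ± 0.10, adjusted p = 0.387), and the combination was above T3 livers (196 ± 19.0 CPM, log2 1.07 ± 0.12, adjusted p = 0.000471). Of the sulfotransferases, Sult1a1 rose by 1.60 ± 0.23 and Sult1b1 fell by 2.08 on the log2 scale, and the uptake carrier Slco1b2 was at 163 to 244 CPM in combination livers and 311 to 1590 CPM in control livers (log2 -1.73 ± 0.45). The calls of Thrb, Med1, Slco1b2 and Sult1b1 were lost in 1 to 5 of the 8 fits that leave out 1 liver, between them those without control 4 or any 1 combination liver (with an adjusted p of up to 0.135, Slco1b2 without combination 3), and that of Slco1b2 with lane as a block (adjusted p = 0.063).

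The list of T3-responsive liver genes, like the others, was written with earlier results of these data known. Of its 37 tested members, 10 rose and 2 fell, Tat and Ces1g (alternatives 10 to 15 higher, 1 to 4 lower), with a median log2 change of 0.31. The other 25 did not pass, with log2 changes from -3.43 (Gstm3) to 1.43 (Fgf21). Idh3a, a catalytic subunit of the citric acid cycle's NAD-linked isocitrate dehydrogenase, was at 165, 168, 164 and 158 CPM in combination livers and 41.5, 39.4, 29.4 and 26.8 CPM in control livers (log2 2.25 ± 0.20, adjusted p = 0.000181). The combination livers were also above glucagon livers (46.0 ± 7.01 CPM, log2 1.82 ± 0.12, adjusted p = 2.35e-06) and T3 livers (94.4 ± 14.4 CPM, log2 0.78 ± 0.13, adjusted p = 0.00573), and they varied least. Cyp7a1, which sets the pace of bile acid synthesis, was at 259, 542, 410 and 321 CPM in combination livers and 114, 85.7, 72.5 and 109 CPM in control livers. Its log2 change was 2.00 ± 0.27 (adjusted p = 0.00158), and glucagon livers were at 20 ± 19.2 CPM, so the combination was 4.28 ± 0.55 above them. T3 livers were at 220 ± 81.7 CPM, from which the combination did not differ detectably (log2 0.79 ± 0.29, adjusted p = 0.136).

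Cyp17a1, the steroid 17-alpha-hydroxylase, averaged 564 ± 147 CPM in combination livers and 29.3 ± 11.6 CPM in control livers (log2 4.26 ± 0.39). T3 livers were at 387 ± 138 CPM, from which the combination did not differ detectably (log2 0.53 ± 0.25, adjusted p = 0.233). Hr, a corepressor that T3 induces in brain, was at 14.2 to 26.7 CPM in combination livers and 0.749 to 3.88 CPM in control livers. Bcl3, a transcriptional cofactor of the NF-kappaB family, was at 483, 441, 475 and 464 CPM in combination livers and 17.9, 137, 130 and 77.2 CPM in control livers, and without control 4 its adjusted p was 0.0513. Ppargc1b, a coactivator of mitochondrial genes, rose by 1.65 ± 0.32. Gpd2, the mitochondrial glycerol phosphate dehydrogenase long used to assay thyroid status, rose by 0.89 ± 0.20, a call lost without control 4, combination 1, 2 or 4 (adjusted p up to 0.0831 without combination 1). Ces1g, a carboxylesterase, fell by 2.24 on the log2 scale. Some textbook targets did not pass. Thrsp was at 1990, 4100, 3680 and 2160 CPM in combination livers and at 5800, 430, 761 and 3080 CPM in control livers, and the control livers spanned the whole range of the combination. Fgf21, a hepatokine of fasting, was at 30.9, 56.5, 25.8 and 50.5 CPM in combination livers and 1.02, 48.5, 6.96 and 2.79 CPM in control livers. Its adjusted p was 0.358, and 0.00169 without control 1 and control 2, with a log2 change of 3.09.

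**Figure D3:**
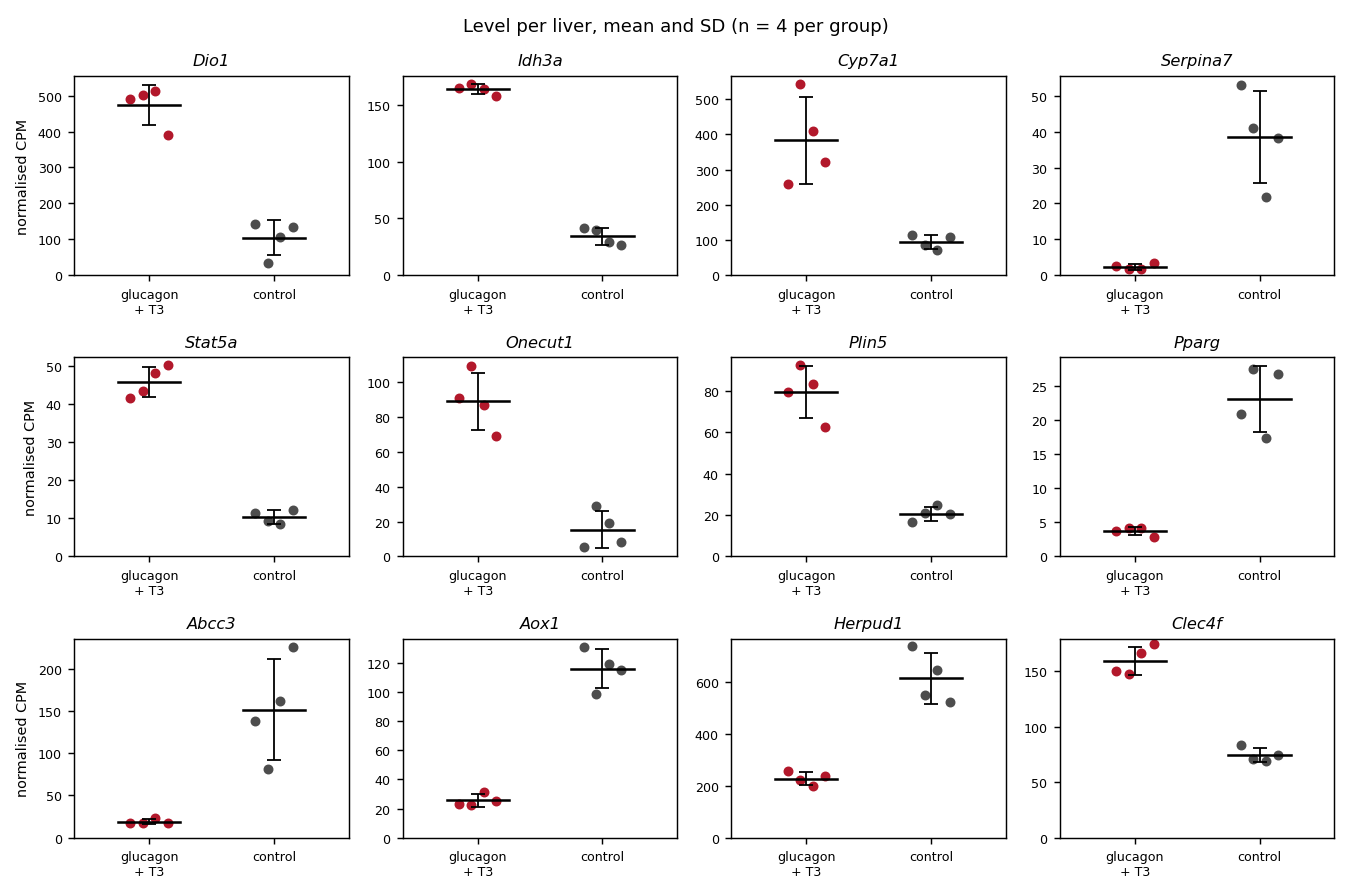
Normalised CPM of 12 genes (vertical axes, linear from 0) in each of the 4 glucagon + T3 livers (red, left) and the 4 control livers (grey, right), with the mean as a line and the SD as a bar. In each panel the groups do not overlap, and Idh3a in the glucagon + T3 livers shows the smallest spread relative to its mean (164 ± 4.37 CPM). The 12 genes were picked from called ones with their values known, so the lack of overlap reflects that choice (17% of all genes did not overlap).

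The glucagon receptor and the chain below it gave few calls against control. Of 35 tested genes of the receptor, G proteins, adenylyl cyclases, protein kinase A and phosphodiesterases, 1 rose and 1 fell (alternatives 1 to 3 higher, 0 to 3 lower), near the shares over all genes. The 33 members that did not pass had log2 changes between -0.68 (Adcy5) and 0.95 (Adcy7). Gcgr, the receptor, was at 298, 299, 439 and 289 CPM in combination livers and 380, 198, 455 and 362 CPM in control livers, and the groups overlapped (log2 -0.08 ± 0.27, adjusted p = 0.891). Pde4a, a phosphodiesterase that degrades cAMP, averaged 32.2 ± 10.1 CPM in combination livers and 12.5 ± 4.15 CPM in control livers (log2 1.36 ± 0.30). Pde4d was at 8.13 ± 1.04 CPM in combination livers and 14.8 ± 3.88 CPM in control livers (log2 -0.87 ± 0.23). The call of Pde4a was lost without control 4, combination 3 or combination 4 (adjusted p up to 0.0691). That of Pde4d was lost without control 2, control 4 or any 1 combination liver (adjusted p up to 0.14 without combination 4), and also with lane as a block (adjusted p = 0.0986) and without control 1 and control 2 (0.0592).

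Among genes switched on by cAMP and CREB, Sik1 lay near its level under glucagon alone and most others lay below theirs. Against control, 3 of 28 tested rose and 4 fell, with a median log2 change of 0.05 (alternatives 4 to 7 higher, 2 to 5 lower). For the 21 that did not pass, log2 changes ranged from -1.38 (Fos) to 1.42 (Id1). Against glucagon livers, 4 of the 28 were higher and 22 lower in the combination, with a median of -2.19, beside 17.8% and 16.2% of all 12288 genes tested there. Sik1, a kinase that feeds back on CREB coactivators, was at 561, 476, 409 and 502 CPM in combination livers and at 39.4, 80.9, 59.1 and 29.3 CPM in control livers (log2 3.21 ± 0.32, adjusted p = 0.000366). Glucagon livers were at 622 ± 214 CPM and T3 livers at 133 ± 37.7 CPM, and the combination was 1.87 ± 0.21 above T3 (adjusted p = 0.000471) but not detectably different from glucagon (log2 -0.36 ± 0.22, adjusted p = 0.237).

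The NR4A orphan nuclear receptors, immediate targets of glucagon in liver, behaved otherwise. Nr4a1 was at 7.42, 8.15, 4.20 and 6.12 CPM in combination livers and 21.1, 21.5, 15.9 and 9.88 CPM in control livers (log2 -1.41 ± 0.30, adjusted p = 0.0168), while glucagon livers held 133 ± 55.3 CPM. Nr4a2 was at 6.47, 5.03, 4.03 and 4.36 CPM in combination livers and 2.09, 1.63, 1.37 and 1.21 CPM in control livers (log2 1.64 ± 0.29, adjusted p = 0.00676), against 88.7 ± 31.0 CPM in glucagon livers. Nr4a3 was at 7.96, 5.67, 1.89 and 4.54 CPM in combination livers and at 0.214 to 0.623 CPM in control livers, from 277 counts in combination livers and 27 in control livers. The combination therefore lay above control for Nr4a2 and Nr4a3 and below it for Nr4a1. It lay below glucagon by 4.36 ± 0.32, 4.15 ± 0.27 and 4.96 ± 0.33 on the log2 scale for Nr4a1, Nr4a2 and Nr4a3, and above T3 for Nr4a2 (2.04 ± 0.28) and Nr4a3 (3.08 ± 0.51). The call of Nr4a1 against control was lost without combination 3 and without combination 4 (adjusted p up to 0.0592).

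The promoter windows of these genes carry the motif that CREB binds, and they are shown because genes with the same motif content moved in different directions. The 300 bases run from 250 before to 50 after the RefSeq start (GRCm38.p6). Capitals in the lower-case sequence mark each TGACG or its reverse complement, the core of a cAMP response element. They also mark each CACGTG (an E-box, bound by CLOCK and ARNTL) and TAGGTCA (the core bound by ROR and REV-ERB receptors) on either strand. None of the marked motifs overlap. Nr4a1 lies at chr15:101266596-101266895 (plus strand), Nr4a2 at chr2:57123954-57124253 (minus strand), Nr4a3 at chr4:48045055-48045354 (plus strand), Pck1 at chr2:173152823-173153122 (plus strand) and Per1, by the first of its 2 windows, at chr11:69098699-69098998 (plus strand).
Nr4a1: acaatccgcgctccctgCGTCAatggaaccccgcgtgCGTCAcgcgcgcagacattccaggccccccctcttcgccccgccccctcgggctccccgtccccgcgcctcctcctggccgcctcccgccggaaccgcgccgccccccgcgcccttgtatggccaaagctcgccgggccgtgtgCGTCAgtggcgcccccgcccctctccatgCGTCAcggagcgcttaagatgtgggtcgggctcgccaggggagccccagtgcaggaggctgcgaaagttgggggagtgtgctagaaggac
Nr4a2: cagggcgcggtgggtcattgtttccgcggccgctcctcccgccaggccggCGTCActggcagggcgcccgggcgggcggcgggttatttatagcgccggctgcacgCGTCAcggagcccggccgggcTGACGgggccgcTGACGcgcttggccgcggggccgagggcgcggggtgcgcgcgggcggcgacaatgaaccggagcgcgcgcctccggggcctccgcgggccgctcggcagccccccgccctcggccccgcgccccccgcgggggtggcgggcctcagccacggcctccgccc
Nr4a3: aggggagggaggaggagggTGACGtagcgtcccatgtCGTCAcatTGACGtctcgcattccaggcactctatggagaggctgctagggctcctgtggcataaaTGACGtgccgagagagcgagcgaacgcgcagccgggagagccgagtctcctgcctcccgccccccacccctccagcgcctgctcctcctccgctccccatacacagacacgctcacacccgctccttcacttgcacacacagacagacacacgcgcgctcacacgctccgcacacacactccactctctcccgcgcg
Pck1: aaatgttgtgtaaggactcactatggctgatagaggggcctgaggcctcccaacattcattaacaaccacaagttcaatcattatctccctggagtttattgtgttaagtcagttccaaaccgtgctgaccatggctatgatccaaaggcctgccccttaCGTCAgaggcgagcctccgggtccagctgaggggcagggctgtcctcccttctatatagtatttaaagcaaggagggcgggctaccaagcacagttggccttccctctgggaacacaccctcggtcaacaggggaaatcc
Per1: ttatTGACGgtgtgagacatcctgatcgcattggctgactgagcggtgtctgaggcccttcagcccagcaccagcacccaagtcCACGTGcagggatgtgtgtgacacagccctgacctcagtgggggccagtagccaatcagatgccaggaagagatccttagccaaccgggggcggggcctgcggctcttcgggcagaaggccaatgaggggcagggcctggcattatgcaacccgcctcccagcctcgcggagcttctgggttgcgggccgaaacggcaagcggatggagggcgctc
TGACG occurred 4 times in each NR4A window and 1 time in the windows of Pck1 and Per1, and the full palindrome TGACGTCA in none of the 5. Of 32851 windows in the table, 20.8% held TGACG at least 1 time, 0.231% at least 4 times, and 1.79% held the palindrome. These matches describe letters, not binding.

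Per1, a clock gene that cAMP induces, was at 16.7, 22.4, 20.7 and 11.7 CPM in combination livers and 35.6, 46.7, 94.8 and 49.8 CPM in control livers (log2 -1.67 ± 0.32, adjusted p = 0.00985). Glucagon livers were at 154 ± 1.25 CPM, which put the combination 3.11 ± 0.18 below them on the log2 scale. Tat, the tyrosine aminotransferase, was at 784 ± 147 CPM in combination livers, 5440 ± 333 CPM in glucagon livers, 864 ± 138 CPM in T3 livers and 1640 ± 350 CPM in control livers. It fell by 1.07 on the log2 scale against control (adjusted p = 0.0219), a call lost without combination 1, 3 or 4 (adjusted p up to 0.0904) and with lane as a block (0.051). Ppargc1a, the coactivator of the fasting response, did not pass against control (14.1 ± 2.48 CPM in combination livers, 10.7 ± 2.04 CPM in control livers, adjusted p = 0.297). It was 3.65 ± 0.15 below glucagon livers (178 ± 21.0 CPM, adjusted p = 1.62e-07) and 0.97 ± 0.20 above T3 livers (7.22 ± 1.85 CPM, adjusted p = 0.0203), a call lost without T3 replicate 2 (0.0662), combination 1 (0.0627) or combination 2 (0.0676).

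**Figure D4:**
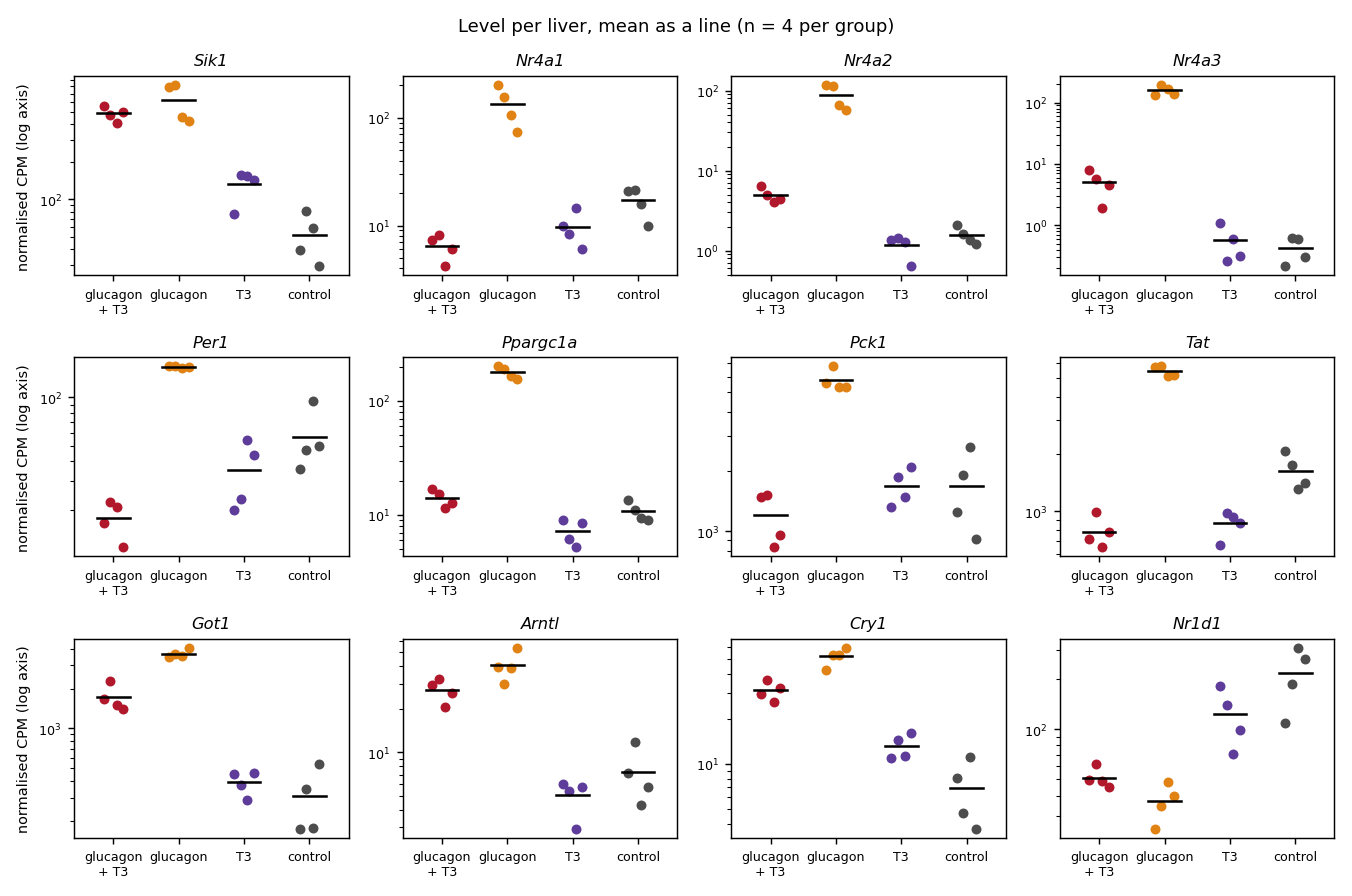
Normalised CPM (log axes) of 12 genes of cAMP signalling, glucose output and the clock in glucagon + T3 (red), glucagon (orange), T3 (purple) and control (grey) livers, 4 points per group with the mean as a line. Sik1 in glucagon + T3 livers lies near glucagon livers (487 and 622 CPM), while Nr4a1, Per1, Ppargc1a, Pck1 and Tat lie far below glucagon livers.

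Enzymes of glucose output and amino acid use changed in part. In gluconeogenesis 3 of 25 tested genes rose (12%, beside 3.85% of all genes) and none fell (alternatives 2 to 5 higher, 0 to 1 lower). At an unadjusted p under 0.05, 5 were higher and 0 lower, beside 2972 of all 12348 genes in either direction. The 22 without a call had log2 changes of at most 0.63 (Gpt2), and the rate-setting enzymes were among them. Pck1, the carboxykinase that commits oxaloacetate to glucose, was at 1490, 1530, 829 and 963 CPM in combination livers and 1250, 1930, 2660 and 916 CPM in control livers (log2 -0.50 ± 0.35, adjusted p = 0.422). G6pc, the phosphatase that releases glucose, was at 685 ± 142 CPM in combination livers and 582 ± 221 CPM in control livers (adjusted p = 0.652). Both were below glucagon livers, Pck1 by 2.26 ± 0.21 and G6pc by 1.59 ± 0.20 on the log2 scale. Got1, the cytosolic aspartate aminotransferase, was at 1680, 2280, 1500 and 1410 CPM in combination livers and 175, 351, 176 and 538 CPM in control livers (log2 2.46 ± 0.39, adjusted p = 0.00349). It lay between glucagon livers (3660 ± 285 CPM) and T3 livers (393 ± 81.1 CPM), with the combination 2.12 ± 0.20 above T3 (adjusted p = 0.000163) and 1.10 ± 0.16 below glucagon (adjusted p = 0.000421). Mdh2 and Gpd2 were the other members that rose, Mdh2 by 0.65 ± 0.17, a call lost without control 3, control 4 or any 1 combination liver (adjusted p up to 0.148 without combination 4) and with lane as a block (0.116).

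Of 49 tested genes of amino acid breakdown and the urea cycle, 6 rose and 2 fell, Tat and Agxt2 (alternatives 6 to 11 higher, 1 to 6 lower). Agxt, the alanine-glyoxylate aminotransferase, was at 1740, 1890, 760 and 1100 CPM in combination livers and 371, 405, 433 and 290 CPM in control livers (log2 1.87 ± 0.31, adjusted p = 0.00465), and glucagon livers were higher still at 3630 ± 612 CPM. Slc25a15, the mitochondrial ornithine carrier of the urea cycle, was at 379 ± 88.7 CPM in combination livers and 136 ± 19.8 CPM in control livers. It did not differ detectably from glucagon livers (472 ± 12.1 CPM, log2 -0.32 ± 0.16, adjusted p = 0.138) and was 1.49 ± 0.19 above T3 livers. Aass, which starts lysine breakdown, rose by 1.4 ± 0.29, Gldc of the glycine cleavage system by 0.90 ± 0.18, and Nags, which makes the activator of the urea cycle's first enzyme, by 0.83 ± 0.21. Agxt2, a mitochondrial aminotransferase, fell by 1.53 on the log2 scale. The calls of Aass, Gldc, Agxt2 and Nags were lost in 2 to 6 of the 8 fits that leave out 1 liver, between them those without control 2 or 4 or any 1 combination liver (adjusted p up to 0.118, Nags without combination 2), and that of Nags with lane as a block (0.0635).

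In glycolysis and glycogen metabolism 1 of 27 genes rose (3.7%) and 2 fell (7.41%), beside 3.85% and 3.59% of all genes (alternatives 1 to 3 higher, 2 to 4 lower). Ppp1r3c, which targets protein phosphatase 1 to glycogen, was at 0.594, 0.639, 0.165 and 1.95 CPM in combination livers and 33.4, 7.91, 30.5 and 21.7 CPM in control livers (adjusted p = 0.00138). Its summed counts, 41 in combination livers and 1388 in control livers, gave a ratio of combination over control of 0.0356 (0.0254 to 0.0485, exact 95% interval for counting error only). Slc2a2, the hepatocyte glucose transporter GLUT2, was at 109, 110, 105 and 107 CPM in combination livers and 455, 149, 280 and 316 CPM in control livers, so the combination livers lay close together and below every control liver (log2 -1.48 ± 0.29, adjusted p = 0.0113). Pfkfb4, a regulator of fructose 2,6-bisphosphate, was at 5.84 to 42.4 CPM in combination livers and 0.856 to 3.85 CPM in control livers, with an adjusted p of 0.0213, or 0.0635 without combination 3.

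Lipid genes showed a mixed picture with strong single changes. Of 43 tested genes of fatty acid and triglyceride synthesis and storage, 6 rose and 3 fell (alternatives 5 to 12 higher, 4 to 7 lower). Pparg, the lipid-storing nuclear receptor that fatty liver expresses, was at 3.68, 4.23, 4.20 and 2.87 CPM in combination livers and 20.8, 27.4, 17.4 and 26.7 CPM in control livers (log2 -2.63 ± 0.24, adjusted p = 0.000181). Plin5, a coat protein that ties lipid droplets to mitochondria, was at 79.7, 92.5, 83.6 and 62.4 CPM in combination livers and 16.5, 20.8, 24.9 and 20.7 CPM in control livers (log2 1.94 ± 0.20, adjusted p = 0.000436). Plin5 was at 37.9 ± 5.05 CPM in glucagon livers and 37.5 ± 1.54 CPM in T3 livers, and the combination exceeded both (log2 1.07 ± 0.14, adjusted p = 0.000206, and 1.08 ± 0.13, adjusted p = 0.000786). Elovl3, a fatty acid elongase, was at 18.2 ± 2.91 CPM in combination livers, 348 ± 117 CPM in glucagon livers, 48.6 ± 9.51 CPM in T3 livers and 133 ± 56.9 CPM in control livers. The combination was thus below glucagon, T3 and control livers (log2 -4.26 ± 0.25, -1.43 ± 0.17 and -2.87 ± 0.33, with adjusted p of 8.87e-07, 0.000522 and 0.000759).

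G0s2, the inhibitor of adipose triglyceride lipase, rose by 1.49 ± 0.27 to 506 ± 132 CPM, and Pnpla2, which encodes that lipase, by 1.36 ± 0.32. Plin4, another droplet coat, rose by 1.78 ± 0.33. Pnpla3, a lipase relative, was at 46.5, 48.5, 167 and 26.9 CPM in combination livers and 5.37 to 23.2 CPM in control livers. Acacb, the mitochondrial acetyl-CoA carboxylase whose product restrains fatty acid import, rose by 1.29 ± 0.34, and Gpam, which starts triglyceride assembly, fell by 1.48 on the log2 scale. The calls of Pnpla2, Pnpla3, Acacb and Gpam were lost in 3 to 6 of the 8 fits that leave out 1 liver, between them those without control 1, 2, 3 or 4 or any 1 combination liver (adjusted p up to 0.131, Pnpla3 without combination 3), and that of Pnpla3 with lane as a block (0.0808). Without control 1 and control 2, Acacb was at an adjusted p of 0.0765 and Pnpla3 at 0.0528.

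Of 43 tested genes of fatty acid oxidation and ketone production, 4 rose and 2 fell (alternatives 3 to 8 higher, 2 to 5 lower). Slc22a5, the carnitine transporter, was at 65.7, 65.1, 49.9 and 63.1 CPM in combination livers and 12.9, 14.4, 20.9 and 13.0 CPM in control livers (log2 1.99 ± 0.21, adjusted p = 0.000494), above glucagon livers at 34.5 ± 4.65 CPM. Cyp4a14, a fatty acid omega-hydroxylase, was at 1440 ± 311 CPM in combination livers and 325 ± 81.9 CPM in control livers (log2 2.14 ± 0.26). It was at 134 ± 112 CPM in glucagon livers and 610 ± 251 CPM in T3 livers, and the combination was above both (log2 3.42 ± 0.59 and 1.23 ± 0.26). Against T3 the call was lost in the fit of all 20 libraries (adjusted p = 0.29) and without combination 2 (0.072), combination 4 (0.0508) or T3 replicate 2 (0.0687). Ehhadh, a peroxisomal enzyme, rose by 0.97 ± 0.24 and Etfb, an electron transfer subunit, by 0.78 ± 0.21. Acadm, the medium-chain acyl-CoA dehydrogenase, fell by 1.11 and Crot, the peroxisomal carnitine octanoyltransferase, by 1.5 on the log2 scale. The calls of Ehhadh, Etfb and Crot were lost in 3 to 6 of the 8 fits that leave out 1 liver, between them those without control 2, 3 or 4 or any 1 combination liver (adjusted p up to 0.142, Etfb without combination 3), and those of Ehhadh and Etfb with lane as a block (0.0753 and 0.0911). None of 46 tested respiratory chain genes passed by edgeR or DESeq2, with a median log2 change of 0.12. At an unadjusted p under 0.05, 8 were higher and 0 lower, limma called 1 higher, and the fit of all 20 libraries called 8 higher. Over all genes, 2972 of 12348 were under that unadjusted p in either direction. Limma called 890 of all genes higher and the fit of all 20 libraries 1191.

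Sterol genes fell more often than they rose. Of 27 tested genes of cholesterol synthesis and its control, 5 fell and 1 rose (alternatives 1 to 2 higher, 2 to 8 lower). Insig1, which holds the sterol sensor in the endoplasmic reticulum, was at 41.4, 54.2, 40.2 and 29.7 CPM in combination livers and 153, 103, 205 and 132 CPM in control livers (log2 -1.84 ± 0.26, adjusted p = 0.0019). Hmgcs1, Fdft1 and Sc4mol, enzymes of the pathway from acetyl-CoA to sterols, fell by 0.92, 0.94 and 1.34 on the log2 scale. Pmvk, the phosphomevalonate kinase, went the other way, at 179, 154, 103 and 80.8 CPM in combination livers and 15.2, 14.7, 17.8 and 30.2 CPM in control livers (log2 2.73 ± 0.32, adjusted p = 0.000879). Glucagon livers held 248 ± 63.1 CPM of Pmvk and T3 livers 14.2 ± 6.32 CPM, with the combination 0.95 ± 0.25 below glucagon and 3.17 ± 0.31 above T3. The calls of Hmgcs1, Fdft1 and Sc4mol were each lost in 5 of the 8 fits that leave out 1 liver, between them those without control 4 or any 1 combination liver (adjusted p up to 0.128, Hmgcs1 without combination 3) and with lane as a block (0.0729, 0.0708 and 0.0533).

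In the bile acid list, Cyp7a1 was the only member of 28 tested that rose, and 5 fell (alternatives 1 higher, 4 to 9 lower), with a median log2 change of -0.40. Abcc3, the basolateral exporter of bile acids, was at 17.9, 17.7, 23.0 and 17.6 CPM in combination livers and 138, 80.8, 162 and 225 CPM in control livers (log2 -2.99 ± 0.30, adjusted p = 0.000334). Nr0b2, the nuclear receptor SHP that bile acids induce and that represses Cyp7a1, was at 21.5, 15, 18.3 and 22.7 CPM in combination livers and 62.2, 39.6, 71.4 and 108 CPM in control livers (log2 -1.86 ± 0.29, adjusted p = 0.0034). Scp2, the peroxisomal thiolase of side-chain shortening, fell by 1.57 and Acox2, the side-chain oxidase, by 1.08 on the log2 scale. Acox2 lost its call without any 1 of the combination livers (adjusted p up to 0.0862 without combination 3). Of 32 sterol and lipoprotein genes 1 rose (3.12%) and 2 fell (6.25%), beside 3.85% and 3.59% of all genes (alternatives 0 to 2 higher, 1 to 6 lower). Angptl4 rose by 1.03 ± 0.25, and Soat2, which esterifies cholesterol, fell by 1 ± 0.23 on the log2 scale. The calls of Angptl4 and Soat2 were lost in 4 of the 8 fits that leave out 1 liver, between them those without control 4 or combination 1, 2 or 4 (adjusted p up to 0.109) and with lane as a block (0.0764 and 0.0553), and that of Angptl4 without control 1 and control 2 (0.0523).

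Male-biased liver genes fell and female-biased ones rose in these male mice, though not all members of either list passed. Male mouse liver sees growth hormone in pulses, which activate STAT5 and keep male-biased genes on, whereas the more continuous pattern of females favours another set that includes the repressor CUX2. Of 31 male-biased genes tested, 14 fell and none rose (alternatives 1 higher, 15 to 18 lower), with a median log2 change of -1.97. At an unadjusted p under 0.05, 21 were lower and 1 higher. Of 24 female-biased genes tested, 11 rose and 1 fell (alternatives 6 to 13 higher, 1 to 2 lower), with a median of 1.12. The lowest number higher, 6, was by limma with library weights. Cyp4a12a, the male-specific arachidonic acid hydroxylase, was at 0.119, 0.0799, 0.0823 and 0 CPM in combination livers and 77.3, 20.8, 70.8 and 26.2 CPM in control livers. Its summed counts, 4 in combination livers and 2949 in control livers, gave a ratio of combination over control of 0.00163 (0.000445 to 0.00419, exact 95% interval for counting error only). Its near copy Cyp4a12b, with 3 counts in combination livers and 1108 in control livers, gave a ratio of 0.00326 (0.000672 to 0.00956). Glucagon livers held 15 ± 8.03 CPM of Cyp4a12a and T3 livers 0.263 ± 0.196 CPM.

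Keg1 was at 35.3, 24.9, 19.3 and 31.1 CPM in combination livers and 629, 299, 286 and 200 CPM in control livers (log2 -3.68 ± 0.38). Mup20, a pheromone-binding urinary protein, was at 6.47 ± 5.30 CPM in combination livers and 100 ± 69.3 CPM in control livers, and Cyp2d9, a testosterone 16-alpha-hydroxylase, at 70.0 ± 51.1 CPM in combination livers and 622 ± 253 CPM in control livers. The complement genes C6 and C8a fell by 1.99 and 1.97 on the log2 scale. The other male-biased genes that fell were Elovl3, Gstp1, Cyp2u1, Nat8, Cml5, Hsd17b13 and Hsd3b5. Hsd3b5 was at 5.34, 0.399, 0.165 and 2.78 CPM in combination livers and 186, 2.59, 99.9 and 5.20 CPM in control livers, so control 2 and control 4 overlapped the combination. Its call was lost without control 1, control 3 or any 1 combination liver (adjusted p up to 0.136 without combination 2). Hsd17b13 lost its call without combination 1, 2 or 3 (adjusted p up to 0.0689).

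Cux2 itself was at 5.11, 48.5, 115 and 12.9 CPM in combination livers and at 0.535, 0.479, 0.588 and 0.226 CPM in control livers. T3 livers were at 38.7 ± 42.6 CPM, not detectably different from the combination (log2 0.22 ± 0.86, adjusted p = 0.916), and glucagon livers at 1.22 ± 0.53 CPM. Combination and control livers did not overlap, which the ranking above required of this gene together with a call (log2 6.60 ± 0.97, adjusted p = 0.00247). The combination livers spread over a wide range. Limma with library weights, an alternative test, gave an adjusted p of 0.114 for Cux2, and it also left A1bg (0.0602), Cyp3a44 (0.0575), Prom1 (0.0572) and Cyp2a4 (0.304) without a call. Cyp3a16 was at 24.9, 283, 397 and 70.3 CPM in combination livers and 2.01 to 4.07 CPM in control livers. Cyp3a44 was at 9.91, 65.0, 121 and 18.0 CPM in combination livers and 0.623 to 2.49 CPM in control livers, and A1bg was at 2.26, 26.2, 21.8 and 8.34 CPM in combination livers and 0 to 0.240 CPM in control livers. In Cux2, Cyp3a16, Cyp3a44 and A1bg combination 2 and combination 3 were the highest livers and combination 1 the lowest. Cyp2a4, Cyp17a1, Sall1, Prlr and Trim24, which are on the female-biased list and also rose, had the same order. Prom1 and Cyp4a14 were the female-biased genes that rose without it. Prom1 was at 3.38, 12.1, 17.5 and 13.0 CPM and Cyp4a14 at 1370, 1650, 1020 and 1700 CPM in combination 1, 2, 3 and 4. The opposite order held for the male-biased Mup20 and Cyp2d9, in which combination 1 was the highest (12.3 and 142 CPM) and combination 2 and combination 3 the lowest (2.80 and 1.23 CPM of Mup20, 30.8 and 35.6 CPM of Cyp2d9). Keg1, C6, C8a and Hsd3b5 had that order too, and the other male-biased genes called did not. Elovl3, Gstp1 and Cyp2u1 were highest in combination 4, and Hsd17b13 was lowest in combination 1 (114 CPM).

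**Figure D5:**
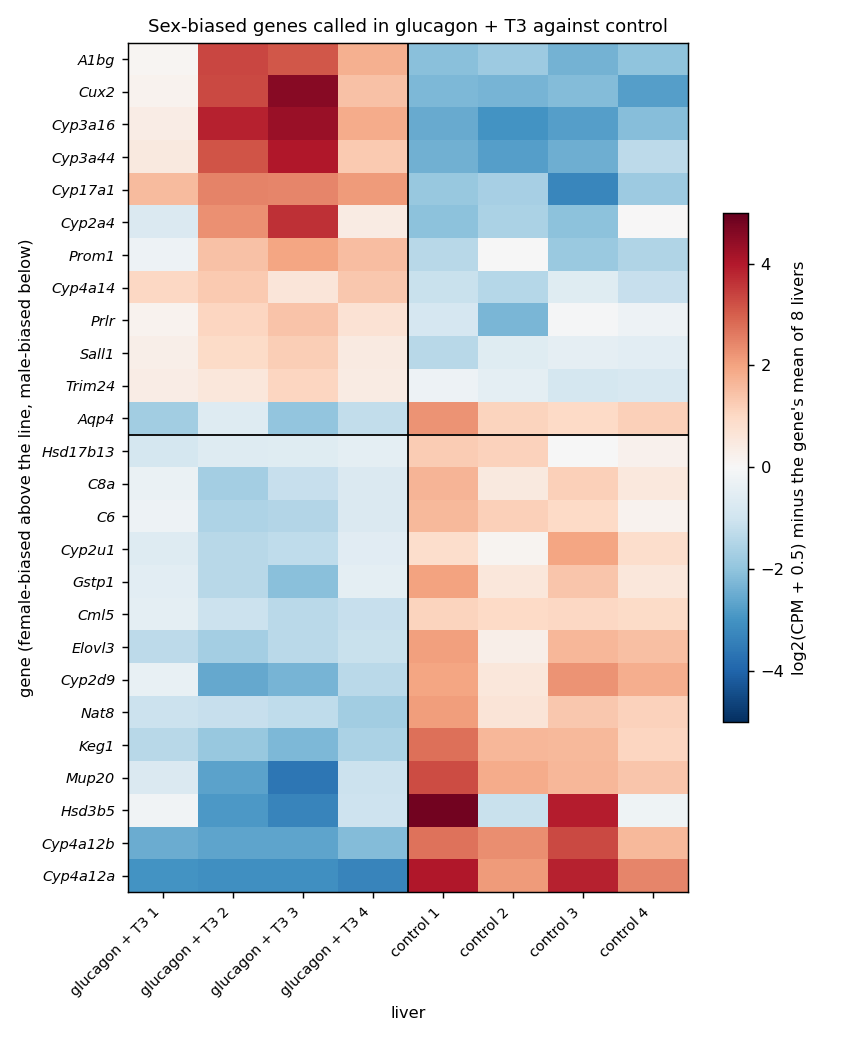
Log2(CPM + 0.5) minus the gene's mean of the 8 livers (colour) for the 26 sex-biased genes called, 12 from the female-biased list above the line and 14 from the male-biased list below it, with glucagon + T3 livers in the left columns and control livers in the right columns. Cux2, Cyp3a16, Cyp3a44 and Cyp2a4 are strongest in glucagon + T3 livers 2 and 3, and Aqp4 is the female-biased gene that was lower (log2 -3.81).

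Cyp17a1 and Cyp4a14, given above, are also on the female-biased list. Of the remaining female-biased genes, Sall1 and Trim24, both transcriptional regulators, rose by 1.49 ± 0.28 and 1.21 ± 0.23, Prlr, the prolactin receptor, by 1.58 ± 0.43, Prom1 by 2.59 ± 0.58 and Cyp2a4 by 3.77 ± 0.97. Aqp4, a water channel, was at 0.421 ± 0.394 CPM in combination livers and 5.83 ± 2.97 CPM in control livers. The calls of Cyp2a4, Prom1 and Prlr were lost in 4 to 6 of the 8 fits that leave out 1 liver, between them those without control 1, 2, 3 or 4 or any 1 combination liver (adjusted p up to 0.149, Prlr without combination 3), and that of Cyp2a4 with lane as a block (0.0664) and without control 1 and control 2 (0.12).

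Genes of growth hormone and IGF signalling rose in part, with 6 of 28 tested higher and 1 lower (alternatives 5 to 9 higher, 1 to 3 lower) and a median log2 change of 0.40. Stat5a, a transcription factor that growth hormone activates, was at 41.5, 43.4, 48.0 and 50.1 CPM in combination livers and 11.5, 9.25, 8.52 and 12.2 CPM in control livers (log2 2.14 ± 0.19, adjusted p = 0.000181). Glucagon livers held 3.70 ± 0.997 CPM of it, which the combination exceeded by 3.60 ± 0.18 (adjusted p = 3.9e-07), and T3 livers 57.6 ± 6.24 CPM. Its neighbour Stat5b rose by 0.99 ± 0.22. Ghr, the growth hormone receptor, was at 527 ± 59.6 CPM in combination livers and 1500 ± 745 CPM in control livers (log2 -1.51 ± 0.33). Igf1, the main product of its signal, did not pass (956 ± 31.1 CPM in combination livers and 712 ± 158 CPM in control livers, adjusted p = 0.255, or 0.0305 by limma with library weights). Onecut1, a hepatocyte transcription factor that growth hormone regulates, was at 90.8, 109, 86.9 and 69.1 CPM in combination livers and 5.67, 28.7, 19.3 and 8.22 CPM in control livers (log2 2.51 ± 0.45, adjusted p = 0.00696). The combination was above glucagon livers (19.8 ± 17.1 CPM, log2 2.19 ± 0.54, adjusted p = 0.00897) and T3 livers (31.2 ± 15.4 CPM, log2 1.51 ± 0.33, adjusted p = 0.0241). The call against T3 was lost without combination 1, combination 2 or T3 replicate 2 (adjusted p up to 0.0762) and in the fit of all 20 libraries (0.293).

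Lepr, the leptin receptor, was at 37.1, 39.2, 27.4 and 29.8 CPM in combination livers and 8.77, 4.22, 3.33 and 4.00 CPM in control livers (log2 2.70 ± 0.31, adjusted p = 0.000698). It lay between glucagon livers (92.4 ± 12.3 CPM) and T3 livers (8.15 ± 2.89 CPM), below glucagon by 1.47 ± 0.15 and above T3 by 2.04 ± 0.21 on the log2 scale. Irs1, the insulin receptor substrate, rose by 0.89 ± 0.23. The calls of Stat5b, Ghr and Irs1 were lost in 4 to 7 of the 8 fits that leave out 1 liver, between them those without control 1, 2 or 4 or any 1 combination liver (adjusted p up to 0.148, Irs1 without combination 1), and that of Irs1 with lane as a block (0.0706) and without control 1 and control 2 (0.0783).

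Many drug-metabolising enzymes fell. Of 51 tested, 15 fell and 6 rose, with a median log2 change of -1.08 (alternatives 4 to 7 higher, 14 to 29 lower). Control 2 did not stand above the combination on the list as a whole. The summed level was 14900 to 15900 CPM in combination livers, 13700 CPM in control 2 and 30700 to 46900 CPM in the other control livers. Aox1, an aldehyde oxidase, was at 22.8, 22.5, 31.6 and 25.2 CPM in combination livers and 131, 98.8, 119 and 115 CPM in control livers (log2 -2.18 ± 0.19, adjusted p = 0.000181). Cyp3a11, the main drug-oxidising P450 of mouse liver, was at 85.5, 91.7, 110 and 84.0 CPM in combination livers and 651, 495, 290 and 710 CPM in control livers (log2 -2.54 ± 0.29). Glucagon livers were at 121 ± 18.8 CPM and T3 livers at 97.9 ± 17.2 CPM. Ephx1, the microsomal epoxide hydrolase, was at 229 ± 38.2 CPM in combination livers, 716 ± 86.6 CPM in glucagon livers, 258 ± 44.1 CPM in T3 livers and 729 ± 111 CPM in control livers. Cyp2e1, the ethanol-oxidising P450, was at 4150, 3500, 3580 and 4590 CPM in combination livers and 24100, 2990, 15500 and 15200 CPM in control livers, and control 2 lay below the combination. The others that fell were Cyp2d9, Cyp2c55, Aox3, Gsta4, Gstp1, Ugt2b5, Ugt2b36, Ces1e, Ces1f, Ces1g and Ces2a, with log2 changes of -3.15 to -0.96.

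Members that rose were Cyp3a16, Cyp3a44 and Cyp2a4 of the female-biased set, Sult1a1, Gstt1, a glutathione transferase, at 2130 ± 267 CPM in combination livers and 808 ± 255 CPM in control livers, and Por. Por, the reductase that passes electrons to every microsomal P450, was at 749, 867, 714 and 687 CPM in combination livers and 182, 257, 436 and 395 CPM in control livers (log2 1.24 ± 0.28, adjusted p = 0.0219). Outside the list, Cyp2c44, an epoxygenase of arachidonic acid, fell to 33.1 ± 11.9 CPM in combination livers, against 526 ± 133 CPM in control livers. The calls of Por, Cyp2c55, Cyp2e1, Aox3, Ugt2b5, Ugt2b36, Ces1e, Ces1f and Ces2a were lost in 2 to 7 of the 8 fits that leave out 1 liver, between them those without control 1, 3 or 4 or any 1 combination liver (adjusted p up to 0.156, Ugt2b36 without combination 2). With lane as a block the adjusted p was 0.0986 for Cyp2e1, 0.0723 for Ugt2b36, 0.114 for Ces1e and 0.0543 for Ces1f.

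Clock genes moved in both directions, with 3 of 26 tested higher and 4 lower (alternatives 3 to 4 higher, 3 to 5 lower). The clock is a loop in which ARNTL and CLOCK switch on Per and Cry genes and the REV-ERB receptor Nr1d1, whose products switch ARNTL off again, so the level of each depends on the hour of sampling. Arntl was at 29.6, 32.4, 20.7 and 25.8 CPM in combination livers and 7.22, 11.9, 4.31 and 5.73 CPM in control livers (log2 1.87 ± 0.31, adjusted p = 0.00457). Cry1 was at 29.2, 36.6, 26.1 and 32.1 CPM in combination livers and 8.02, 4.70, 11.2 and 3.70 CPM in control livers (log2 2.17 ± 0.32, adjusted p = 0.00255). Nr1d1, the repressor of Arntl, was at 49.4, 62.2, 48.6 and 45 CPM in combination livers and 109, 186, 309 and 265 CPM in control livers (log2 -2.09 ± 0.31, adjusted p = 0.00234). Bhlhe41, another repressor of the loop, was at 0.240 to 0.927 CPM in combination livers and 2.83 to 16.6 CPM in control livers, from 33 counts in combination livers and 442 in control livers. Dbp, a clock output factor, was at 132 ± 22.4 CPM in combination livers and 371 ± 222 CPM in control livers (log2 -1.49 ± 0.38). Its call was lost without control 4 or any 1 combination liver (adjusted p up to 0.112 without combination 4) and with lane as a block (0.0589).

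The single hormones placed these genes differently. Arntl was at 40.5 ± 9.94 CPM in glucagon livers and 5.02 ± 1.41 CPM in T3 livers, and the combination was 2.43 ± 0.22 above T3 (adjusted p = 0.00015). Cry1 was at 52.4 ± 7.20 CPM in glucagon livers and 13.2 ± 2.46 CPM in T3 livers, with the combination 0.76 ± 0.14 below glucagon (adjusted p = 0.00144) and 1.23 ± 0.16 above T3 (adjusted p = 0.00128). Nr1d1 was at 37.0 ± 9.67 CPM in glucagon livers and 123 ± 48.4 CPM in T3 livers, below which the combination lay by 1.26 ± 0.24 on the log2 scale (adjusted p = 0.0119). The hour of collection is not stated for any group, and its part in these values was not tested.

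The promoter windows of 3 clock members are shown because Cry1 and Bhlhe41, which changed in opposite directions, both carry an E-box. They have the same length, build and capitals as those above. Cry1 lies at chr10:85185005-85185304 (minus strand), Bhlhe41 at chr6:145865371-145865670 (minus strand) and Arntl, by the second of its 2 windows, at chr7:113207261-113207560 (plus strand).
Cry1: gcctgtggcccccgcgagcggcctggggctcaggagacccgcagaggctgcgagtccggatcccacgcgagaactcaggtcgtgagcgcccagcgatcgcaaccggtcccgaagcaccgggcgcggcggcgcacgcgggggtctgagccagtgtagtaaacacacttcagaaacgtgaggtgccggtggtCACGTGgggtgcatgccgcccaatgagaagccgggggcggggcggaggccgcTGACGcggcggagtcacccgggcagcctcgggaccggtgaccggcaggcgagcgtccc
Bhlhe41: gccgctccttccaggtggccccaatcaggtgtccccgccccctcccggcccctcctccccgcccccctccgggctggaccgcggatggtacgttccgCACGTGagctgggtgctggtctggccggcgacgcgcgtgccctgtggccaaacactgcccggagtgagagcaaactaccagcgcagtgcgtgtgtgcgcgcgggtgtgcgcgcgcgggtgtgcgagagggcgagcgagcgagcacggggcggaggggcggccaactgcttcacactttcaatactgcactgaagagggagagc
Arntl: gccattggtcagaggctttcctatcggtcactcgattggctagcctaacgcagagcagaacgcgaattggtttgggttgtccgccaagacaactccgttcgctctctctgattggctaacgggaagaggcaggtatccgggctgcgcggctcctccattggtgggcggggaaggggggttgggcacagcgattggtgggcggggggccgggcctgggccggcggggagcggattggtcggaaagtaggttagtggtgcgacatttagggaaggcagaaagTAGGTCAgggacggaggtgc
CACGTG occurred 1 time in the windows of Cry1, Bhlhe41 and Per1 and in 7.15% of all windows, and TAGGTCA 1 time in that of Arntl and in 2.61% of all windows. The windows of Arntl and Per1 shown are those that hold these motifs, and the other window of Arntl holds no TAGGTCA and that of Per1 no CACGTG. The windows of Nr1d1 and Dbp held neither motif, which says only that these letters are not in those 300 bases.

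Protein-folding and antioxidant genes fell in small numbers. Of 36 tested genes of the endoplasmic reticulum stress and ATF4 programmes, 4 fell and none rose by edgeR (alternatives 0 to 3 higher, 3 to 6 lower). At an unadjusted p under 0.05, 7 were lower and 3 higher, beside 2972 of all 12348 genes in either direction. Herpud1, a component of the degradation of misfolded proteins, was at 256, 222, 198 and 238 CPM in combination livers and 742, 551, 647 and 525 CPM in control livers (log2 -1.43 ± 0.20, adjusted p = 0.00195). The chaperones Pdia4, Sdf2l1 and Dnajb9 fell by 0.94, 1.09 and 1.16 on the log2 scale. Of 29 tested antioxidant genes, 4 fell and none rose by edgeR (alternatives 0 higher, 1 to 7 lower). At an unadjusted p under 0.05, 8 were lower and 1 higher, beside the same 2972 of 12348 genes. Gclc, the catalytic subunit that limits glutathione synthesis, was at 170, 207, 281 and 221 CPM in combination livers and 1040, 565, 721 and 522 CPM in control livers (log2 -1.70 ± 0.27, adjusted p = 0.00375). Catalase (Cat) was at 2020 ± 120 CPM in combination livers and 4290 ± 1150 CPM in control livers, and Gsr and Gclm, of glutathione reduction and synthesis, fell by 0.75 and 0.96. All of these but Herpud1 and Gclc lost their calls in 3 to 7 of the 8 fits that leave out 1 liver, between them those without control 1, 2, 3 or 4 or any 1 combination liver (adjusted p up to 0.15, Gclm without combination 1). With lane as a block the adjusted p was 0.0868 for Cat, 0.0896 for Gsr and 0.0917 for Gclm, and without control 1 and control 2 it was 0.0768 for Dnajb9 and 0.0685 for Gclm.

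Of 26 immediate early and stress genes 1 fell (alternatives 0 to 2 higher, 1 to 5 lower). At an unadjusted p under 0.05, 7 were lower and 1 higher, beside 2972 of all 12348 genes in either direction. The called gene was Zfp36, an mRNA-destabilising protein, at 60.1 ± 4.10 CPM in combination livers and 180 ± 64.1 CPM in control livers (log2 -1.58 ± 0.26). Acute phase genes gave 2 calls of 36, both higher (5.56%, beside 3.85% of all genes, alternatives 3 to 4 higher, 0 to 1 lower). Mt1, a metallothionein that binds zinc, was at 100, 174, 265 and 90.1 CPM in combination livers and 3.26, 41.3, 6.37 and 22.8 CPM in control livers (log2 3.07 ± 0.70, adjusted p = 0.0232). Its neighbour Mt2 did not pass (log2 2.71 ± 0.78, adjusted p = 0.0598, or 0.0255 with lane as a block). Cebpb, a transcription factor of the acute phase and fasting, rose by 1.34 ± 0.30. Of 31 tested cell cycle genes, 25 had a log2 change above 0, with a median of 0.5 beside -0.06 over all genes. The summed level of the list overlapped, at 374 to 655 CPM in combination livers and 250 to 716 CPM in control livers. Only 2 cell cycle genes passed, both higher (6.45%, beside 3.85% of all genes, alternatives 2 to 5 higher, 0 lower). They were Rrm2, which makes deoxynucleotides (12.6 ± 5.27 CPM in combination livers and 2.83 ± 1.24 CPM in control livers), and Ccne1, a G1 cyclin (8.11 ± 2.64 CPM in combination livers and 3.40 ± 1.19 CPM in control livers). Against glucagon livers 14 of 30 cell cycle genes were higher in the combination and 1 was lower, beside 17.8% and 16.2% of all genes tested there. The calls of Mt1, Cebpb and Ccne1 were lost in 3 to 6 of the 8 fits that leave out 1 liver, between them those without control 1 or 4 or any 1 combination liver (adjusted p up to 0.143, Ccne1 without combination 1), and that of Ccne1 with lane as a block (0.0689) and without control 1 and control 2 (0.0524).

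Zonation lists mark the portal and central ends of the liver lobule. Of 24 periportal genes 1 rose and 5 fell (alternatives 1 to 5 higher, 4 to 5 lower). Of 30 pericentral genes 1 rose, Cyp7a1, and 1 fell, Cyp2e1 (alternatives 1 to 2 higher, 2 to 9 lower). Each is 3.33% of the list, near the 3.85% and 3.59% of all genes. The number of pericentral genes lower was 6 by DESeq2, 5 by limma, 9 without control 1 and control 2, and 7 at an unadjusted p under 0.05. Over all 12348 genes, 2972 were under that unadjusted p in either direction. Hsd17b6, a hydroxysteroid dehydrogenase, was at 4.93, 27.0, 17.9 and 17.1 CPM in combination livers and 415, 302, 219 and 107 CPM in control livers (log2 -3.97 ± 0.54). Uox, the urate oxidase, was at 713 ± 116 CPM in combination livers and 3110 ± 2260 CPM in control livers, where control 1 was at 6470 CPM and the others at 1670 to 2190 CPM. Pigr, the receptor that carries IgA into bile, fell by 1.56 on the log2 scale, and Hsd17b13, a lipid droplet protein, and Lgals1, galectin-1, fell as well, while Sult5a1, a sulfotransferase, rose by 3.39 ± 0.38. The calls of Uox, Pigr and Lgals1 were lost in 1 to 4 of the 8 fits that leave out 1 liver, between them those without control 4 or combination 1, 2 or 3 (adjusted p up to 0.102, Lgals1 without combination 2), and that of Lgals1 with lane as a block (0.0589) and without control 1 and control 2 (0.0528).

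Genes of other liver cells gave few calls. Of 35 tested macrophage genes 4 rose (alternatives 3 to 6 higher, 0 to 2 lower), with a median log2 change of -0.08, and all 4 mark resident Kupffer cells or scavenger macrophages. Clec4f, a lectin of mouse Kupffer cells, was at 150, 147, 166 and 174 CPM in combination livers and 83.3, 70.5, 69.0 and 74.7 CPM in control livers (log2 1.09 ± 0.17, adjusted p = 0.00318). It was at 57.1 ± 11.4 CPM in glucagon livers and 197 ± 14.1 CPM in T3 livers. Timd4, a receptor for dying cells, rose by 1.27 ± 0.28, Cd163, the haemoglobin scavenger receptor, by 1.66 ± 0.40, and Marco, another scavenger receptor, by 1.74 ± 0.45. The summed level of the 37 macrophage genes in the files was 1810 to 2160 CPM in combination livers and 1110 to 2860 CPM in control livers, so the whole list overlapped. Timd4, Cd163 and Marco lost their calls in 3 to 6 of the 8 fits that leave out 1 liver, between them those without control 1, 3 or 4 or any 1 combination liver (adjusted p up to 0.128, Marco without combination 2), and Timd4 with lane as a block (0.0507).

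Vwf, von Willebrand factor of endothelium, was the 1 endothelial gene of 27 that passed, a share of 3.7% beside 3.85% of all genes (alternatives 1 higher, 0 to 1 lower). It was at 30.5, 44.1, 60.6 and 28.5 CPM in combination livers and 7.54, 10.7, 17.6 and 17.5 CPM in control livers (log2 1.62 ± 0.33, adjusted p = 0.0136, or 0.0504 without combination 3). It lay between glucagon livers (98.7 ± 25.8 CPM) and T3 livers (14.8 ± 6.53 CPM). Krt8, a keratin of bile ducts and hepatocytes, fell by 1.93 on the log2 scale, and Alas2, of red cell haem synthesis, by 1.43, a call lost without combination 1, 2 or 4 (adjusted p up to 0.0809). Cela1, an elastase known best from the exocrine pancreas, was at 172, 130, 114 and 136 CPM in combination livers and 71.6, 30.7, 46.1 and 24.8 CPM in control livers (log2 1.67 ± 0.31). Cela2a rose by 2.38 ± 0.41 from 115 counts in combination livers and 27 in control livers. None of 31 stellate cell, 17 lymphocyte or granulocyte, 42 interferon and 7 skeletal muscle genes passed by edgeR. At an unadjusted p under 0.05, 1 stellate gene was higher and 4 were lower, 1 interferon gene was higher and 4 were lower, and 0 of the lymphocyte and muscle genes passed. Over all genes, 2972 of 12348 passed at that level in either direction. DESeq2 called 1 stellate gene higher and 2 lower, 1 interferon gene higher and 1 lower, and 0 of the lymphocyte and muscle genes. Without control 1 and control 2, 8 interferon genes were higher and 1 was lower; the summed level of that list was 1340 to 2360 CPM in combination livers, 5310 CPM in control 2 and 1130 to 1330 CPM in the other control livers.

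The same combination livers were also tested against each hormone alone, so all comparisons share these 4 libraries. Against glucagon, 4177 of 12288 genes were called (34%), 2185 higher and 1992 lower in the combination, and leaving out 1 liver at a time gave 3530 to 3831. Against T3, 523 of 11962 genes were called (4.37%), 316 higher and 207 lower. Leaving out 1 liver at a time gave 226 to 605, with 226 without combination 2, 282 without combination 1 or T3 replicate 2, 339 without T3 replicate 1 and 343 without T3 replicate 4. The livers did not overlap in 12.7% of genes, with the combination above T3 in 7.44% and below it in 5.29%. T3 libraries had fewer reads (6091917 to 7996156) and another lane, whose part in the smaller number of calls was not tested, and that number does not show that the groups act alike. Interferon genes, of which none passed against control, were higher in the combination than in glucagon livers in 38 of 42, with a median log2 difference of 1.32. Macrophage genes were higher in 26 of 34, with a median of 1.01, beside 17.8% of all genes. The summed interferon level was 687 to 1110 CPM in glucagon livers and 1340 to 2360 CPM in combination livers. It was 1130 to 5310 CPM in control livers and 1700 to 2990 CPM in T3 livers. The summed macrophage level was 1040 to 1290 CPM in glucagon, 1810 to 2160 CPM in combination and 2420 to 3460 CPM in T3 livers. Against T3, 4 of 35 macrophage genes were lower and 0 higher, beside 1.73% and 2.64% of all genes.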

How the data were processed

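Per the labels' protocols, RNA of individual livers was isolated with a Qiagen kit, and libraries used Lexogen chemistry. The authors deposited raw read counts per gene symbol for each library, and the submitters' processing notes name HTSeq and the mm10 build. The sources used here do not state the aligner, annotation, strand setting or HTSeq version. Each file held the same 13319 symbols, 1 file used commas in place of tabs, and no pair of libraries held identical values.

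Counts were tested with the quasi-likelihood test of edgeR 4.0.16 (R 4.3.3) in a fit of the 8 compared libraries, with TMM factors, filterByExpr (minimum count 10, minimum total 15) and Benjamini-Hochberg adjustment over all tested genes at 0.05, after the script had been tested on simulated data. The fit held only the compared groups because the control livers varied more than the other groups. Errors of log2 changes are the change divided by the square root of its F statistic. Printed levels are CPM with TMM factors over all 20 libraries. Intervals and floors cover counting error only.

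Replicate numbers are sequencing lanes in the labels for the combination, glucagon and control libraries, so lane could serve as a block. Deviations of libraries in the same lane correlated at 0.052, -0.091, 0.192 and -0.211 between combination and control, and at 0.32, 0.068, -0.073 and -0.132 between combination and glucagon. Alternatives were RLE factors, no filter, DESeq2 1.42.0, limma 3.58.1 (voom) with library weights, all 20 libraries in 1 fit, the same without control 2, lane as a block, each replicate left out, and, added after the data were seen, control 1 and control 2 left out.

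The comparison, the gene lists and the named genes were chosen with earlier results of these data known. The rule for named genes took the 10 highest and 10 lowest of the called genes that averaged 20 CPM or more and did not overlap (predicted genes left out), the 4 members of each list with the smallest p, all members of 5 lists (glucagon receptor chain, thyroid hormone handling, cAMP and CREB targets, gluconeogenesis, T3-responsive genes), and a panel of 12 hormone targets. It named 256 genes, of which 105 were called. The text prints values over control for 112 of them, and the 144 others, of which 2 were called, are covered by the counts, medians or ranges of their lists. Another 41 genes outside the rule, list members that were called, were added after their values were seen. Genes with values in the text therefore lean towards called ones (144 of 153). Promoter windows came from RefSeq (GRCm38.p6) for 125 of the 153 genes with printed values. Some genes of the lists are not reported here by name.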

Additional observations from a re-analysis of the deposited data

Results flagged for a closer look

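In 306 groups of 4 livers checked over the 153 genes with values in the text, which were chosen with those values known, 19 held a liver whose gap to the nearest other one took up more than 0.829 of the group's range, and chance alone marks about 1 group in 20. Control 1 was such a liver for 8 genes, each time as the highest. It stood at 1590 CPM for Slco1b2 (other control livers 311 to 492 CPM), 69 CPM for Acadm (46.8 to 48.7), 499 CPM for Ugt2b5 (168 to 208), 203 CPM for Mup20 (54.5 to 75.6), 10.3 CPM for Aqp4 (4.02 to 4.68), 6470 CPM for Uox (1670 to 2190) and 226 CPM for Sucnr1 (19.5 to 46.2). It was also the highest for Lepr, at 8.77 CPM against 3.33 to 4.22 CPM in the other control livers. Of these genes, Lepr was higher and the rest lower in combination than in control livers.

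Control 2 was the highest control liver for Prom1 (4.07 CPM, others 0.784 to 1.28), Cyp4a31 (8.34 CPM, others 1.07 to 2.19) and Fgf21 (48.5 CPM, others 1.02 to 6.96). Control 4 was the highest for Cyp2a4 (4.07 CPM, others 0.588 to 1.01) and Cyp3a44 (2.49 CPM, others 0.623 to 0.909).

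Combination 3 was the highest combination liver for Abcc3 (23 CPM, others 17.6 to 17.9), Pnpla3 (167 CPM, others 26.9 to 48.5) and Gcgr (439 CPM, others 289 to 299), and the lowest for Slc22a5 (49.9 CPM, others 63.1 to 65.7). Combination 1 was the highest for Ccne1 (12.1 CPM, others 6.42 to 7.03) and combination 2 for Marco (42.3 CPM, others 14.5 to 18.8).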

How the results depend on the processing

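Against control, RLE factors gave 914 genes and no filter 863, while DESeq2 gave 1613, limma with library weights 1725, all 20 libraries 2598, all without control 2 2819, and the fit without control 1 and control 2 1638, of which 812 were among the 918. Leaving out 1 liver gave 452 to 1352. Lane as a block gave 741, of which 679 were among the 918. Against T3 (523), DESeq2 gave 978 (541 higher and 437 lower), all 20 libraries 179 (146 higher and 33 lower), and leaving out 1 liver 226 to 605. No paired analysis was possible against T3 because its libraries share no lane with the combination. Against glucagon (4177), lane as a block gave 4001, and Cyp3a11 and Arntl lost their calls there (adjusted p = 0.0562 and 0.0505). Summed over lists, calls numbered 138, with 203 by DESeq2, 204 by limma, 240 in the fit of all 20 libraries, 286 without control 2 in it, 223 without control 1 and control 2, and 82 to 196 when leaving out 1 liver. Uncalled log2 changes that turned were those of Thrsp over control (-0.12 in all libraries without control 2, and -0.11 to 1.06 leaving out 1 liver) and Gcgr (-0.27 to 0.08), and over T3 those of Dio1 (-0.03 to 0.18) and Cux2 (-0.82 to 1.34). Of the 144 called genes with values in the text, a set chosen with its values known, 80 were called in all 8 fits that leave out 1 liver, and lane as a block changed no call other than those given in the text. Limma with library weights lost 10, among them Pfkfb4 (adjusted p = 0.0915), Pnpla3 (0.0526), Hsd3b5 (0.107), Dnajb9 (0.0678) and Gclm (0.148) besides those in the text, and no filter lost 5 (Ugt2b36, Hsd3b5, Prlr, Irs1 and Gclm, at 0.0525 to 0.057). The causes were not tested. The T3 libraries held at most 7996156 counts each, and how far that depth limits their comparison was not tested.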
